A study of Mus musculus with 5 samples.

Results

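The miRNAs studied here are 5 mature mouse miRNAs of the miR-23/27/24 clusters, taken by name from the 1900 on each array. They are mmu-miR-23a-3p, mmu-miR-23b-3p, mmu-miR-24-3p, mmu-miR-27a-3p and mmu-miR-27b-3p (written below without the prefix). For short they are called the family, although they do not all share a seed, the stretch explained below. miRNA levels in mouse back skin were measured on single-colour arrays, which report the brightness of each spot, and 5 arrays were analysed here. Each condition had 1 array, namely unwounded skin of 2-year-old (aged) mice, called D0, aged skin at D3, D5 and D7 after wounding, and unwounded skin of 8-week-old (young) mice. The mice were all female, and a full-thickness punch biopsy of 3 mm had been made in skin at telogen, the resting phase of the hair cycle. The strain, the number of mice behind each array and any pooling are not given in the sources used here, and wounds of young mice were not analysed here. With 1 array a condition differences were not tested and p-values are absent. The precision is limited by how few arrays there are. Every ratio over D0, and the ratio of aged to young skin, share the aged D0 array, so that an error on that array enters all of them. In whole skin, fewer cells of a type and less RNA per cell cannot be told apart.

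miRNAs are short RNAs that guide the silencing complex to messenger RNAs, and the seed, near the 5′ end, does most of the target recognition. miR-23, miR-27 and miR-24 are cut from shared primary transcripts made at paralogous gene clusters, so that a miR-23, a miR-27 and a miR-24 are made together and their levels can then part through processing and decay. In other settings miR-23 and miR-27 are known in blood vessel growth, miR-27 in fat cell differentiation and lipid metabolism, and miR-24 in control of cell division.

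The sequences are shown because the members differ from each other by so little. They are the target sequences that the scanner files give for the probes, 5′ to 3′, with the seed (bases 2 to 8) in capitals.
miR-23a-3p: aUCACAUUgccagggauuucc
miR-23b-3p: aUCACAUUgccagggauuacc
miR-27a-3p: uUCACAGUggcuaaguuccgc
miR-27b-3p: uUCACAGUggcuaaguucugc
miR-24-3p: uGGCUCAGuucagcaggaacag
The members of each pair share their seed and differ at 1 of 21 bases. Counted from the 5′ end, miR-23b-3p differs from miR-23a-3p by U19A, and miR-27b-3p differs from miR-27a-3p by C19U. The seeds of miR-23 and miR-27 share their first 5 of 7 bases, and the seed of miR-24 is unrelated to both. How far a probe also binds its near-identical partner was not tested.

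The genes lie in 2 clusters, placed here on RefSeq's GRCm38.p6. Mir23a, Mir27a and Mir24-2 lie in this order on the plus strand within 404 bases of chromosome 8 (chr8:84208518-84208921). Mir23b, Mir27b and Mir24-1 lie on the plus strand within 792 bases of chromosome 13 (chr13:63300484-63301275), inside the protein-coding gene Aopep. Whether they sit in an exon or an intron of Aopep was not analysed here. The mature miR-24-3p is the same from both clusters, at chr8:84208875-84208896 and at chr13:63301251-63301272, so its probe cannot tell them apart. A miR-23 or miR-27 probe, in contrast, is assigned to 1 cluster by a single base. No other miRNA on the array has the seed of miR-23 or of miR-27. The miR-24 seed is shared by 5 other targets (miR-5124b, miR-6410, miR-6413, miR-6361 and miR-6369), which differ from miR-24-3p by at least 7 edits and reached at most 1.29 times the detection level on any array.

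A miRNA was called detected when the mean intensity of its 2 spots exceeded the 95th percentile of the 4 empty spots of that array. This level lay between 58.3 and 107 units on the 5 arrays, and between 589 and 1768 miRNAs passed it. All 5 members were detected on all 5 arrays, at 15.5 to 167 times the level. Their brightest spot read 18252 units, while the brightest spots of the arrays read 52951 to 61797. Intensities of different probes are not compared, since probes differ in how brightly they bind.

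The scanned intensity of miR-23a-3p was 11656 on the aged D0 array (spots 11173 and 12139), 5982 on D3 (5810 and 6154), 4947 on D5 (4674 and 5220), 9622 on D7 (9897 and 9347) and 17360 on the young array (17103 and 17618). For miR-23b-3p, the product of the other cluster, it was 10456, 5360, 4452, 9502 and 17125 in the same order. Before any normalization, both were thus brightest on the young array and dimmest at D5.

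For miR-24-3p the intensities were 12630, 5553, 7157, 10433 and 17924, with the lowest value at D3 and a higher one at D5. miR-27a-3p read 2333 on the aged D0 array (2135 and 2531), 1778 on D3 (1683 and 1872), 1198 on D5 (1024 and 1372), 3432 on D7 (3392 and 3472) and 7709 on the young array (7407 and 8011). miR-27b-3p read 1997 (1824 and 2171), 970.0 (926.4 and 1014), 944.5 (844 and 1045), 2671 (2697 and 2645) and 5594 (5381 and 5806). For miR-27a-3p and miR-27b-3p the D7 array was brighter than aged D0, whereas for miR-23a-3p, miR-23b-3p and miR-24-3p it was dimmer. For all 5 members the spots of these arrays did not overlap.

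**Figure D1:**
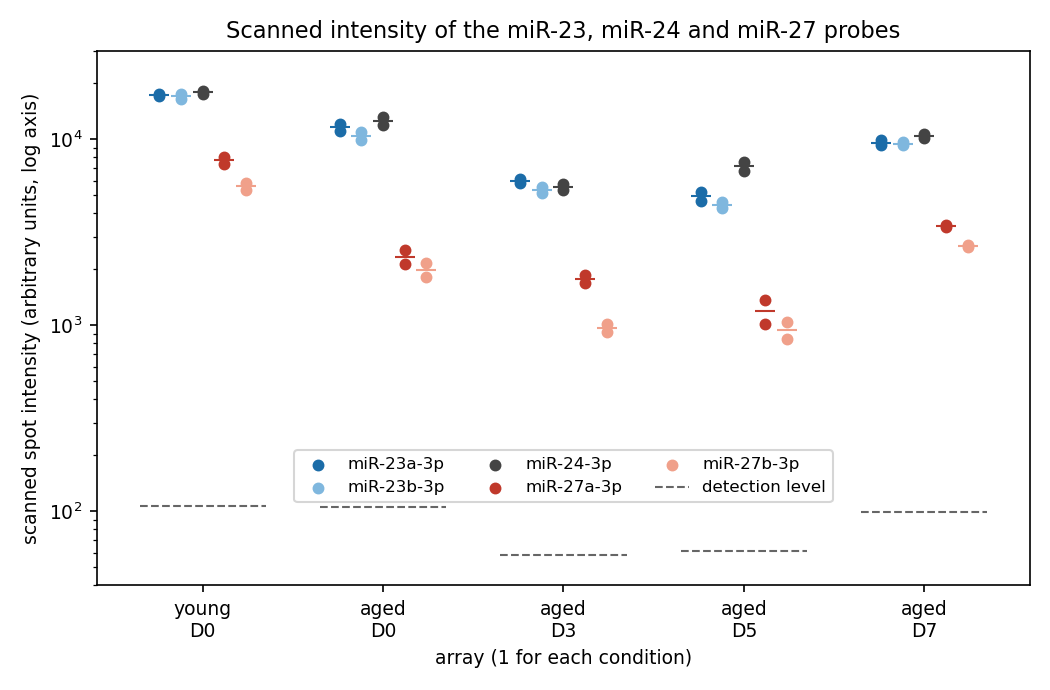
Scanned spot intensity (arbitrary units, log axis) of the 5 miRNAs on each array, not normalized, with 1 point for each of the 2 spots, a bar at their mean and a dashed line at the detection level of the array. All points lie well above the level, and the D3 and D5 arrays hold the dimmest values of every miRNA.

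Normalized ratios were formed after background correction and quantile normalization, which gives all arrays the same distribution of values. Ratios are on the linear scale, and the SD of a log2 ratio was estimated from the repeat spots. This SD was 0.14 at D3, 0.13 at D5 and 0.25 at D7, and also 0.14 between the ages, and it holds nothing of the spread between mice. No member was at least 2-fold higher or lower in any of these 4 comparisons. Of the miRNAs detected on both arrays, 8.89% reached 2-fold upwards at D3 and 7.86% downwards. The corresponding background was 4.3% and 4.48% at D5, 4.8% and 4.63% at D7, and 3.39% and 6.59% for aged over young. Among miRNAs above 2 times the detection level on both arrays, as all members were, the shares were larger. They were 14.5% and 19.8% at D3, 7.84% and 9.8% at D5, 7.88% and 10.3% at D7, and 7.62% and 8.1% for aged over young.

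At D3 all 5 members had a ratio below 1, and miR-27b-3p lay apart from its partner miR-27a-3p. The D3/D0 ratio was 0.855 for miR-23a-3p, 0.805 for miR-23b-3p, 0.668 for miR-24-3p, 0.885 for miR-27a-3p and 0.559 for miR-27b-3p. Only miR-27b-3p was at least 1.5-fold lower, which is 1 of 5 members, where 16.8% of the 585 miRNAs detected on both arrays and 36.2% of the 207 bright ones were. Here, bright means an intensity of more than 2 times the detection level on both arrays compared. The median of the members, 0.805, was near that of 0.781 over the bright miRNAs. The ratios of miR-23a-3p, miR-23b-3p, miR-24-3p and miR-27b-3p stayed below 1 under all 13 alternative processings (other scalings and background corrections, single spots and the authors' processed values), with lowest values between 0.285 and 0.333, whereas that of miR-27a-3p ranged from 0.496 to 1.21 and was above 1 under 3 of them.

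Below, the change of a miRNA means its ratio between the arrays compared, not how far that ratio lies from no difference. The D3/D0 ratio of miR-27a-3p was 1.58 times that of miR-27b-3p, with 1.58 and 1.59 from the first and the second spots. On the log2 scale this difference was 0.66, or 3.27 times the SD of 0.20 expected from repeat spots. It lay between 1.56 and 1.70 under the 13 alternatives, and a factor common to a whole array cancels in it. The other near-identical pair did not part, since the change of miR-23a-3p was 1.06 times that of miR-23b-3p, within 1 SD. In the authors' processed table miR-27a-3p was 2228 at D0 and 2693 at D3, while miR-27b-3p was 1997 and 1416. In the other comparisons the change of miR-27a-3p over that of miR-27b-3p was 1.05 at D5 (0.960 to 1.17 over the alternatives), 1.10 at D7 (1.04 to 1.16) and 0.888 for aged over young (0.785 to 0.940), each within 1 SD of no difference. From D3 to D5 it was 0.666 (0.608 to 0.728), or 3.35 times the SD of repeat spots. This value follows from those at D3 and D5 over D0 and is not a separate observation. An error of either probe on the D3 array would enter both gaps.

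**Figure D2:**
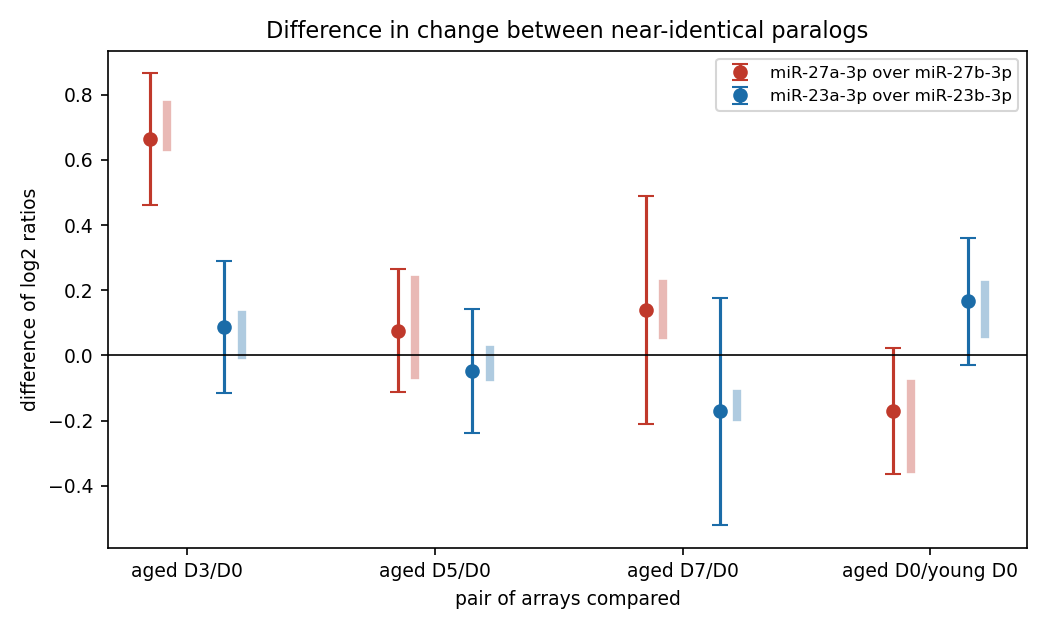
Difference between the log2 ratios of near-identical paralogs in each of the 4 comparisons, with error bars of 1 SD from the repeat spots and pale bars for the range over 13 alternative processings. The miR-27 pair at D3, at 0.66, is the only one of the 8 values whose error bar does not span 0.

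At D5 miR-24-3p lay apart from the miR-27 pair after quantile normalization. The D5/D0 ratio of miR-24-3p was 1.05, with 1.11 from the first spot and no difference from D0 by the second, and its direction changed with the processing (0.425 to 1.19). The ratio was 0.892 for miR-23a-3p, 0.922 for miR-23b-3p, 0.718 for miR-27a-3p and 0.681 for miR-27b-3p, and these 4 were below 1 under all 13 alternatives. With no normalization between arrays the miR-23 pair had the lower ratios, 0.425 and 0.427 against 0.514 and 0.476 for the miR-27 pair. No member was at least 1.5-fold lower, where 12.4% of the miRNAs detected on both arrays and 26% of the bright ones were. The change of miR-24-3p was 1.55 times that of miR-27b-3p (1.19 to 1.68 over the alternatives) and 1.47 times that of miR-27a-3p (1.10 to 1.66). These gaps were 3.32 and 2.92 times the SD of repeat spots, but in the scanned intensities they were only 1.20 and 1.10. The median of the members was 0.892, against 0.932 over 204 bright miRNAs.

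The steps between successive days were examined after the values over D0 had been seen, and they rest on the same arrays. From D3 to D5 the normalized level of miR-24-3p was 1.58-fold higher, with 1.58 from each spot, and it was above 1 under all 12 alternatives run for this step (1.25 to 1.59). It was the 1 member of 5 that was at least 1.5-fold higher, where 8.43% of the 1068 miRNAs detected on both arrays and 27.7% of the bright ones were. miR-27a-3p had a D5/D3 ratio of 0.812, below 1 under the same 12 alternatives (0.655 to 0.908), while miR-23a-3p and miR-23b-3p had 1.04 and 1.14 with directions that changed with the processing. The change of miR-24-3p from D3 to D5 was 1.95 times that of miR-27a-3p (1.74 to 2.18), or 5.48 times the SD of repeat spots. This was the largest difference in units of that SD among the 60 formed, from 10 pairs of members in 6 comparisons, of which 9 exceeded 3 SD. How many pairs of other bright miRNAs exceed 3 SD was not counted, so 9 of 60 does not set the members apart.

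At D7 the miR-27 pair was the highest of the family relative to D0. The D7/D0 ratio was 1.20 for miR-27a-3p and 1.09 for miR-27b-3p, above 1 under 12 and 11 of the 13 alternatives (0.916 to 1.74 and 0.831 to 1.58). miR-23b-3p had 1.03 and was below 1 under 6 alternatives, miR-23a-3p had 0.912 and was below 1 under all 13, and miR-24-3p had 0.869 and was above 1 under 1. No member was at least 1.5-fold higher, where 10.3% of the miRNAs detected on both arrays and 14.3% of the bright ones were. All of these ratios lay within about 1 SD of repeat spots of 1, since the repeat spots of this comparison spread most.

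The step from D5 to D7 was larger for the miR-27 pair. The D7/D5 ratio was 1.67 for miR-27a-3p (1.91 and 1.46 from its spots) and 1.60 for miR-27b-3p (1.75 and 1.45). Both were above 1 under all 12 alternatives, but the size depended on the scaling, from 1.46 to 3.87 and from 1.45 to 3.78. These were the 2 of 5 members that were at least 1.5-fold higher, where 7.74% of the 1033 detected miRNAs and 18% of the bright ones were. Of the bright miRNAs, 34 of 266 had a larger ratio than miR-27a-3p and 38 a larger one than miR-27b-3p. The ratio of miR-24-3p was 0.824 over the same step, with a direction that changed with the processing (0.755 to 1.97, above 1 under 5 of 12). Its change was 0.494 times that of miR-27a-3p (0.471 to 0.668), the opposite order to the step from D3 to D5. Both steps share the D5 array, so an error on it would move them in opposite directions.

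In unwounded skin, the aged over young ratio was 1.20 for miR-23a-3p, 1.07 for miR-23b-3p, 1.28 for miR-24-3p, 0.826 for miR-27a-3p and 0.930 for miR-27b-3p. No member was at least 1.5-fold lower, where 11.6% of the miRNAs detected on both arrays and 14.3% of the bright ones were. The median of the members was 1.07, against 1.16 over 210 bright miRNAs. Whether a single member was higher or lower in aged skin depended on the scaling, as miR-23a-3p and miR-24-3p were below 1 under 4 of the 13 alternatives and miR-23b-3p under 5, while miR-27a-3p was above 1 under 1 (0.272 to 1.01) and miR-27b-3p under 2 (0.321 to 1.19).

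Scaling each array by a single factor moves the ratio of a single member but cancels in the gap between members. The gap is therefore steadier than single ratios by construction. The change of miR-24-3p was 1.55 times that of miR-27a-3p for aged over young, between 1.47 and 2.33 under the alternatives and 3.26 times the SD of repeat spots. That of miR-23a-3p was 1.45 times that of miR-27a-3p (1.40 to 2.22). The mean change of the miR-27 pair over that of the miR-23 pair, a measure chosen after the data were seen, was 0.774 (0.512 to 0.836). At D7 the same measure was 1.18 over D0 (1.15 to 1.62). At D3 and D5 it was 0.847 and 0.771, but it turned to 1.19 and 1.16 when each array was scaled by a single factor, so that the order of the pairs at D3 and D5 was not settled.

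**Figure D3:**
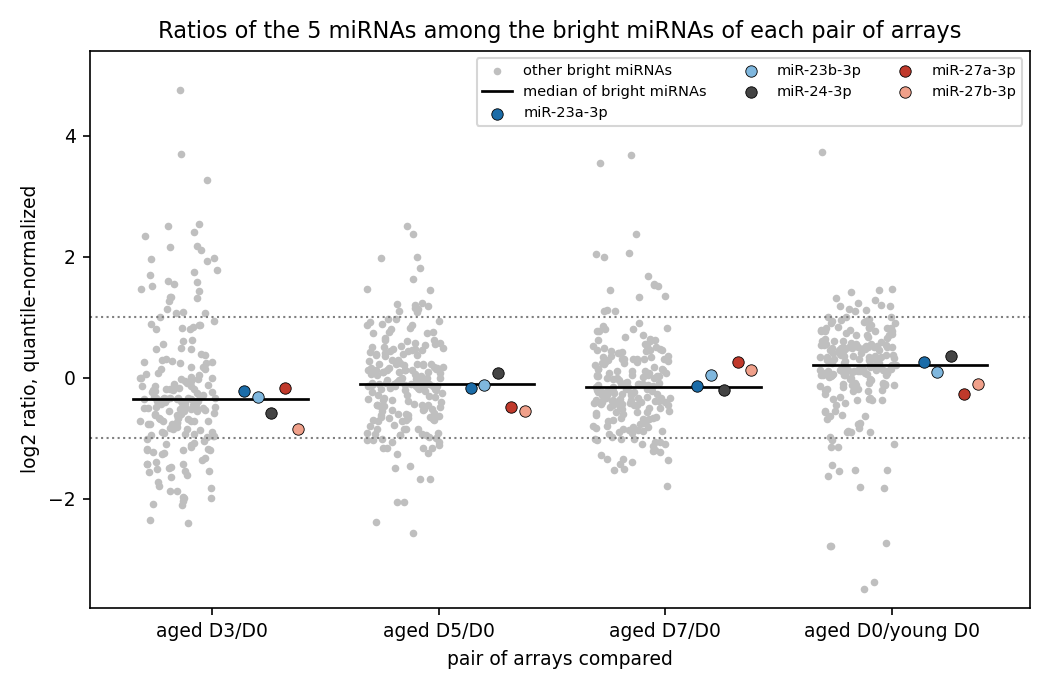
Normalized log2 ratios of the 5 miRNAs (coloured) beside all other bright miRNAs (grey) in each comparison, with a line at the median of the bright miRNAs and dotted lines at 2-fold. All coloured points lie between the dotted lines, with miR-27b-3p lowest at D3 and D5.

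The size of the shift shared by the family could not be fixed. The median D3/D0 ratio of the 5 members was 0.805 after quantile normalization, 0.513 with no normalization between arrays and 0.333 after scaling to 11 spike controls. Set against the bright miRNAs of the same arrays, it was 1.03 times their median after quantile normalization and 0.630 times when each array was scaled by a single factor. The same quantity was 0.957 and 0.611 at D5, 1.15 and 0.745 at D7, and 0.925 and 1.32 for aged over young. Whether the family moved more than other bright miRNAs, and in which direction, therefore changed with the normalization in each comparison except D5, where it was below 1 under all 13 alternatives.

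**Figure D4:**
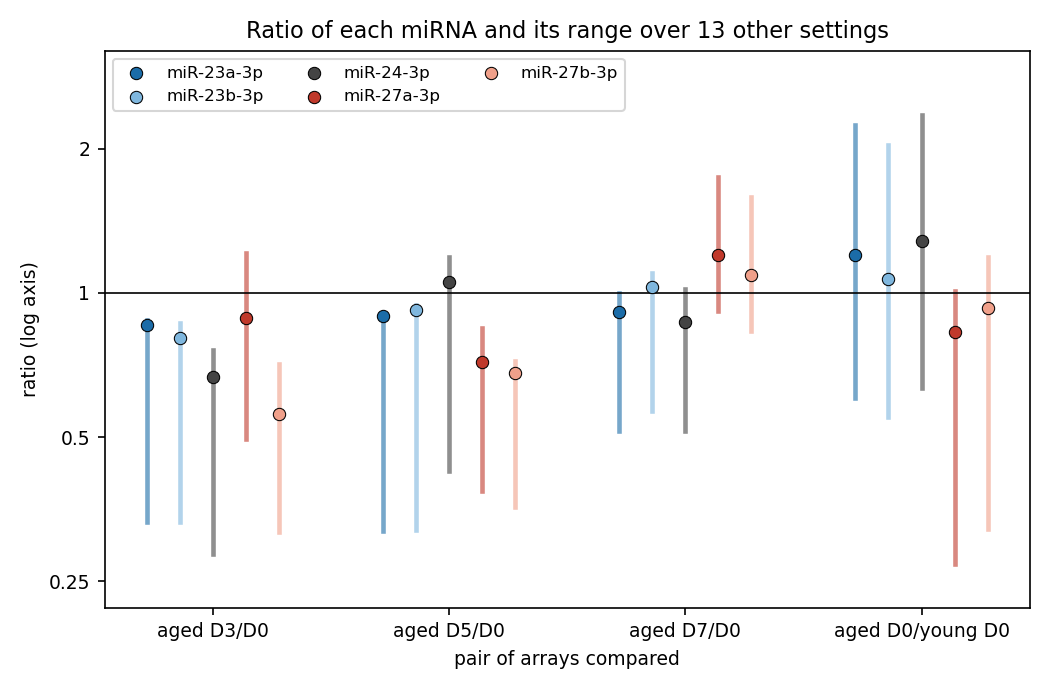
Ratio (log axis) of each miRNA in 4 comparisons, with points for the reported value and bars for the range over 13 alternative processings. The bars of the aged over young ratios span 1 for all 5 miRNAs, while at D3 those of all but miR-27a-3p lie below 1.

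The opposite arms of the hairpins, usually the less abundant strands, were on the array as well, with miR-3074, whose genes overlap those of miR-24. Of these 9 targets, 8 never exceeded 2 times the detection level (61.6 to 168 units). miR-24-1-5p and miR-24-2-5p, the only arms that could separate the 2 sources of miR-24, share their first 16 bases. How far each probe also binds the other arm was not tested. The rest of each is shown here in capitals, and these stretches differ in part but end alike.
miR-24-1-5p: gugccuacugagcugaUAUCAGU
miR-24-2-5p: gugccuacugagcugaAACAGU
miR-24-2-5p, from the cluster on chromosome 8, was bright on all 5 arrays, with 386.7 units on the aged D0 array, 278.5 on D3, 219.6 on D5, 502.2 on D7 and 1052 on the young one. Its normalized ratio was 0.589 at D3 (0.471 to 1.01 over the alternatives) and 0.558 at D5 (0.443 to 0.798). At D7 it was 0.767, but above 1 under 4 of the 13 alternatives (0.699 to 1.49), and for aged over young it was 1.08, but below 1 under 6 (0.332 to 1.23). miR-24-1-5p, from the cluster on chromosome 13, was not detected at aged D0 and read 168 units in young D0, where it was at least 1.33-fold higher after normalization, taking the lowest signal counted as detected for aged D0. This bound holds for quantile normalization, and the measured aged over young ratio of this arm was below 1 under 12 alternatives and 2.05 under the other. miR-3074-5p had the opposite pattern, with 129 units at aged D0 and no detection in young D0, and after quantile normalization the aged level was higher by at least 1.49-fold. Its measured ratio ranged from 1.32 to 6.29 over the alternatives, so that this bound does not hold under all of them.

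The miRNAs whose profile over the 5 arrays lay nearest to the mean profile of the members were miR-181a-5p, miR-26a-5p, miR-30a-5p, miR-106a-5p and miR-7029-5p. Their root mean square differences on the log2 scale were 0.12, 0.13, 0.13, 0.13 and 0.15, where the median of 194 candidates was 0.46. The members themselves lay between 0.06 (miR-23b-3p) and 0.23 (miR-27b-3p) from their mean, and 23 of the 194 candidates were no farther than that. Of these 5 names, 2 stayed among the nearest 5 with cyclic loess, 3 with the authors' processed values and 0 when every miRNA detected on all arrays was a candidate.

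Markers of skin cell types also differed between the arrays, here by ratios after quantile normalization alone. Of 7 epithelial miRNAs, all detected at aged D0, 6 had a D3/D0 ratio below 1, miR-205-5p and miR-203-3p among them, with a list median of 0.428. The exception was miR-200c-3p with 2.10, and the median over all bright miRNAs was itself 0.781. The scanned intensities of all 7, not normalized, summed to 38489 on the aged D0 array, 16244 on D3, 17340 on D5, 27476 on D7 and 46538 on the young one. Sums are set side by side only for the same probes on different arrays, and they also carry the brightness of the whole array. With no normalization, the median aged over young ratio of all bright miRNAs was 0.462. The sums alone therefore do not show a change in a cell type.

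Of 4 leukocyte miRNAs, miR-142a-3p was not detected at aged D0. miR-223-3p, the myeloid marker, had a ratio of 15.3 at D3, 8.76 at D5 and 8.14 at D7, and 0.243 for aged over young. miR-142a-5p had 6.11, 3.28, 4.39 and 0.268 in this order, and miR-150-5p had 0.743, 1.48, 1.08 and 0.774. The scanned intensities of all 4 summed to 778, 3887, 2212, 3851 and 5568 in the order of arrays used for epithelium.

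The 5 miRNAs of mesenchyme and smooth muscle had a median ratio of 0.657 at D3, 1.14 at D5 and 1.38 at D7. Their scanned intensities summed to 17523, 7772, 10747, 24432 and 36248 in the same order of arrays. The list split at D5 and D7, with 3 above 1 and 2 below. At D7 miR-199a-3p, miR-199a-5p and miR-214-3p had 2.17, 2.94 and 1.38, while miR-143-3p and miR-145a-5p had 0.578 and 0.768. The endothelial miR-126a-3p had 0.714, 1.17 and 1.02 at D3, D5 and D7 and 1.06 for aged over young, and its partner arm was detected in young D0 alone. The 4 skeletal muscle miRNAs were all below 1 on each day, with medians of 0.294, 0.512 and 0.516. Of 3 erythroid miRNAs, miR-144-3p was detected at D3 alone, with 59.2 units against a level of 58.3. At aged D0 it read 85.4 units, so this call does not show a rise. miR-451a had 0.601, 0.927 and 0.437, and miR-486a-5p had 0.236, 0.450 and 0.233. For aged over young the list medians were 1.45 for epithelium, 1.05 for mesenchyme and 0.966 for skeletal muscle, and the ratios of miR-451a and miR-486a-5p were 2.28 and 2.00. Their part in the ratios of miR-23, miR-24 and miR-27 was not tested.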

How the data were processed

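Total RNA was labelled and hybridized by LC Sciences, per the labels. The authors deposited scanner files with a linear intensity for every spot, with no normalization and empty background columns, and a table of processed intensity for each miRNA, whose normalization is not given in the sources used here. The processed values follow the scanned ones, with r between 0.994 and 0.999 over bright miRNAs on the log2 scale.

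Samples were grouped by their labels. Scanned intensities of all spots were corrected with limma's normexp (offset 50), fitted on the spot intensities alone because the background columns are empty. Control spots were left out, log2 values were quantile normalized across the 5 arrays, and repeat spots (2 for each miRNA) were averaged. Quantile normalization removes any change shared by all miRNAs. Ratios compare D3, D5 and D7 with D0 in aged skin, and aged with young skin. No test was run, as each condition has 1 array, and depth does not apply to arrays, whose number limits the precision.

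The alternatives were scaling to the 75th percentile, median, spike controls (11) or 5S probes (5), no scaling, cyclic loess, quantile normalization of the compared arrays, offsets of 16 and 100, no background correction, each spot alone, and the authors' processed values, set to at least 1. For the steps between wounded arrays, the pairwise quantile normalization was left out. The scripts were tested on simulated data, with D3 replaced by a noisy copy of D0 that held known changes balanced up and down. The compared arrays did not differ in overall brightness there, so the choice of normalization was not tested.

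The miRNAs named were the 5 members, the other arms of their hairpins and miR-3074, targets with the same bases 2 to 8, and the 5 nearest profiles among miRNAs above 2 times the detection level on all arrays. Marker lists were written from general knowledge. The members and the lists were chosen with earlier results of these data known. Gene positions and hairpins come from RefSeq tables on GRCm38.p6, in which all 5 target sequences were found. Versions were R 4.3.3, limma 3.58.1, Python 3.11.15, pandas 2.3.3, numpy 2.4.6 and matplotlib 3.10.9.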

Additional observations from a re-analysis of the deposited data

How the results depend on the processing

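The difference between miR-27a-3p and miR-27b-3p kept its direction at D3, D7 and for aged over young under all 13 alternatives, and at D5 its range, 0.960 to 1.17, included 1. At D5, D7 and for aged over young it lay within 1 SD of repeat spots of no difference, so its direction there cannot be read. Alternatives with a single factor for each array, or none, share 1 value of it and are not separate checks. Values that depended on the processing included those of the whole family and of the miR-27 pair against the miR-23 pair. The size of the gap between miR-24-3p and the miR-27 pair at D5 did so too. With no normalization between arrays, the median ratio of the 5 members was 0.513 at D3, 0.476 at D5 and 0.610 for aged over young. Scaling to the 75th percentile gave 0.467 at D3, 0.522 at D5, 0.566 at D7 and 2.04 for aged over young. Median scaling gave 0.711 at D3, 0.643 at D5 and 0.550 for aged over young. Scaling to the spike controls gave 0.333, 0.357 and 0.761 for these comparisons, scaling to the 5S probes 0.500, 0.459 and 0.615, cyclic loess 1.31 for aged over young, and the authors' processed values 0.719 at D5. The change of the miR-27 pair over that of the miR-23 pair, under alternatives chosen after seeing the data, was 1.19 at D3, 1.16 at D5, 1.62 at D7 and 0.512 for aged over young with no normalization, 75th percentile, median, spike control or 5S scaling, which share 1 value because a common factor cancels. Cyclic loess gave 1.01 at D3, 0.878 at D5 and 0.530 for aged over young, and the authors' processed values 1.06 at D3 and 1.09 at D5. Single ratios also turned. That of miR-27a-3p was 1.06 with median scaling, 1.11 with cyclic loess and 1.21 with the authors' values at D3, and 0.916 at D7 and 1.01 for aged over young with the 75th percentile. Under no normalization, median, spike control and 5S scaling, the aged over young ratio was 0.671, 0.604, 0.837 and 0.676 for miR-23a-3p, and 0.704, 0.634, 0.878 and 0.709 for miR-24-3p. The cause was not tested. Members at least 2-fold lower numbered up to 5 at D3 and 5 at D5, with spike control scaling. In that setting 294 of the 585 miRNAs detected on both arrays were as low at D3, and 124 of 581 at D5. For aged over young, 2 members (the miR-27 pair) were at least 2-fold lower with no normalization, median, spike control or 5S scaling. With no normalization, 188 of 501 detected miRNAs were. Scaling to the 75th percentile put 3 members at least 2-fold higher there, and 252 of the 501.

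Over all miRNAs detected on both arrays, the share at least 2-fold higher or lower ranged from 5.68% to 54.2% at D3, 3.00% to 26.3% at D5, 3.58% to 36.0% at D7 and 3.42% to 54.5% for aged over young, the lowest of each without the detection filter. Higher miRNAs were 53.1% of those called at D3 (7.26% with spike controls, 75.2% with median scaling), 49.0% at D5 (3.88% and 63.9%), 50.9% at D7 (15.3% with the 75th percentile, 96.9% with 5S) and 34.0% for aged over young (0.437% with median scaling, 92.3% with the 75th percentile). No paired analysis was possible because no condition had over 1 array and the labels carry no replicate numbers. Differences below the spread of repeat spots cannot be read from these arrays.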
